A study of Danio rerio with 8 samples.

Results

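The Hox genes of zebrafish (Danio rerio) were followed in 8 RNA libraries of larvae at 5 days postfertilization. They were taken as every gene whose symbol starts with hoxa, hoxb, hoxc or hoxd and a number, which gave 49 of the 25725 genes listed. The 49 fall into 13 paralog groups and 7 clusters, and the last letter of a symbol tells the a and b copies of a cluster apart, so that hoxb5a lies in the hoxba cluster and hoxb5b in hoxbb. The control group (4 samples) received the solvent DMSO. The treated group (4 samples) received TCDD, the dioxin 2,3,7,8-tetrachlorodibenzo-p-dioxin, which binds the aryl hydrocarbon receptor. Both exposures began 2 hours after fertilization, and no strain, allele or transgene is named. The tissue is labelled heart in all 8 samples. The sources used here do not state the TCDD concentration, how many larvae were pooled or whether samples came from separate clutches. The p values therefore reflect only how far these samples spread, which may be technical.

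Hox genes encode homeodomain transcription factors that give cells their position along the head to tail axis. Genes at one end of a cluster (group 1) are switched on early and in the hindbrain, and those at the other end (group 13) late and in the tail and the tips of the fins, an order known as collinearity. Retinoic acid turns on the anterior groups, caudal (Cdx) factors promote the central and posterior ones, and Polycomb and trithorax complexes keep each gene off or on in later life. Near the heart, anterior Hox genes mark the neural crest of the pharyngeal arches and, in mice, progenitors of the heart's inflow and outflow regions.

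The libraries held 14048563 (DMSO 2) to 15183023 (DMSO 1) estimated counts, and the detection floor of 3 counts was worth 0.198 to 0.214 CPM (counts scaled to a common library size). Transcripts of tissues other than the heart were abundant. Summed over 12 liver markers the libraries held 36802 to 59378 CPM, and over 14 skeletal muscle markers 17153 to 25175 CPM, against 960.8 to 1711 CPM over 13 cardiomyocyte markers. Some lists differed by group in these sums, which are on library size alone. Cartilage markers summed to 9615 to 13451 CPM in DMSO and 7439 to 8964 CPM in TCDD, with 10 of 12 called lower (2.73% of all genes tested were called lower, by the test given below for the Hox genes). Intestine markers summed to 7794 to 9136 CPM in DMSO and 5993 to 7707 CPM in TCDD (3 of 9 tested called lower), and blood markers to 4230 to 6303 CPM and 2790 to 4113 CPM (1 of 9 called lower). Cardiomyocyte markers overlapped, with 1372 to 1711 CPM in DMSO and 960.8 to 1465 CPM in TCDD (2 of 13 called lower). Of 16 neuron markers 1 was called higher, against 2.99% of all genes tested. The part of these tissues in the Hox values was not tested. Markers of tissues known to use Hox genes were present too, with 618.7 to 1538 CPM over 16 neuron markers, 754.5 to 1431 CPM over 12 fin markers and 562.3 to 876 CPM over 12 kidney markers. No marker of these lists was at 0 in all libraries. The Hox values are therefore those of the sampled material, which held more than the labelled heart. In bulk samples fewer cells of a type and less RNA per cell cannot be told apart.

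All 49 Hox genes together took 5315 (DMSO 4) to 6088 (TCDD 3) counts, and 0.0363 (DMSO 4) to 0.0427% (TCDD 2) of a library. Their levels, compared between genes in TPM (transcript abundance scaled by the authors for transcript length and library size), were highest in groups 3 to 5. The 12 genes of these groups held 69.2 to 74.1% of the summed Hox TPM in each library, and 71.1 to 76.8% of the Hox counts when length was left out of account. The 6 genes of groups 1 and 2 held 9.73 to 12.7% of the TPM, and the 8 genes of groups 6 to 8 held 10 to 13.35%. The 23 genes of groups 9 to 13 together held 4.85 to 6.45%. These ranges cover the DMSO and the TCDD libraries together.

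**Figure D1:**
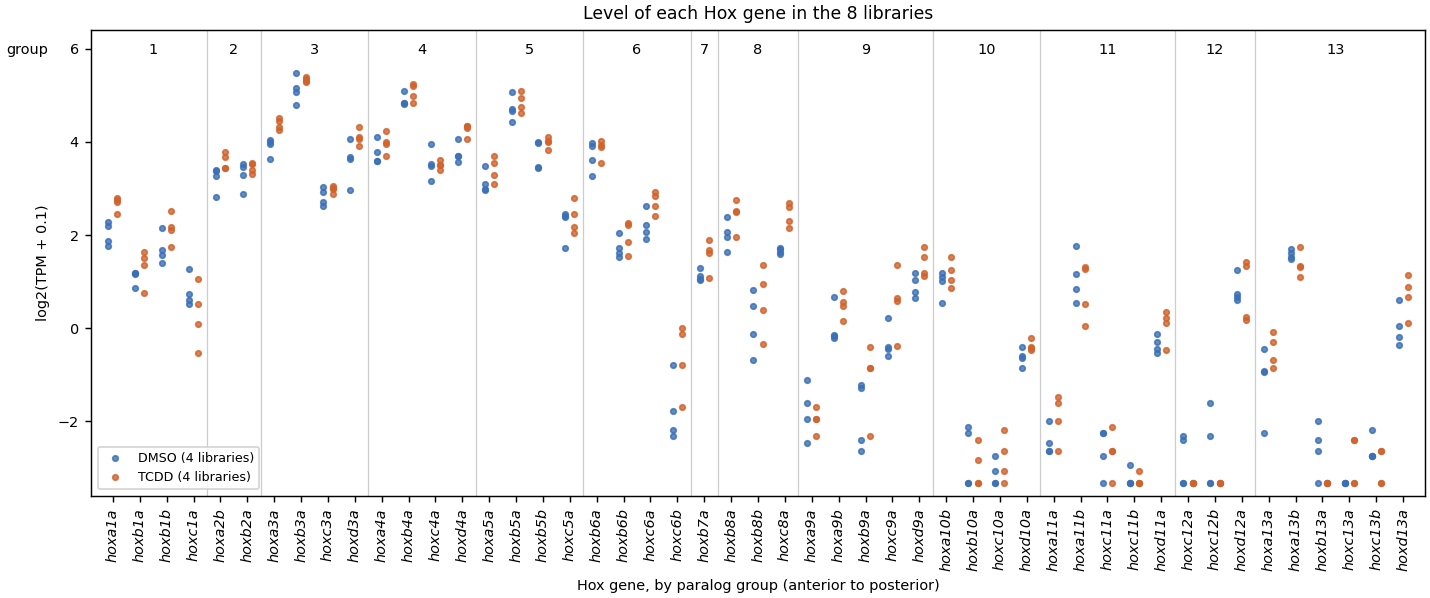
Level of each of the 49 Hox genes as log2(TPM + 0.1), 1 point per library (blue, DMSO, n = 4; orange, TCDD, n = 4), with genes ordered by paralog group from 1 to 13. Levels are highest in groups 3 to 5 and lowest among the hoxc genes of groups 10 to 13. TPM of most genes lie higher in the TCDD libraries: on the log2(TPM + 0.5) scale the median difference was 0.27 over the Hox genes and 0.26 over all genes tested.

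By single gene, hoxb3a was highest with a mean of 37.8 TPM over the 8 libraries, followed by hoxb4a (31.9 TPM) and hoxb5a (27.8 TPM), all in the hoxba cluster. In the vertebrate hindbrain, hoxb3a and hoxb4a mark successive posterior segments. The gene hoxb3a lay above hoxb4a in 7 of 8 libraries, with overlapping ranges of 27.6 to 44.25 TPM and 28.3 to 38.0 TPM, and hoxb4a lay above hoxb5a in 8 of 8, also with overlapping ranges. The gene hoxb5a lay above the next gene, hoxa3a (17.9 TPM), in 8 of 8 libraries, although the ranges of that pair overlapped too. From hoxa3a down to hoxc4a (11.5 TPM) each gene overlapped its neighbour in the order. Among the 12 highest genes, hoxd4a (16.4 TPM), hoxa4a (14.8 TPM), hoxd3a (14.75 TPM), hoxb5b (14.5 TPM), hoxb6a (13.7 TPM), hoxa2b (10.6 TPM) and hoxb2a (10.3 TPM) followed.

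Levels per length rest on the transcript lengths behind the deposited TPM. The length implied by count and FPKM (fragments scaled for length and library size) was 3038 bases for hoxb3a but 493 bases for hoxb4a and 439 bases for hoxb6a. By counts, hoxb3a with 6179 in the DMSO group stood further above hoxb4a with 858 than it did by TPM. The place of hoxb4a after hoxb3a held in TPM only. By DMSO counts hoxb5a (2356), hoxd3a (1276), hoxa3a (1080), hoxb5b (1054), hoxa1a (929), hoxb2a (898) and hoxa4a (864) also stood above it. In a gene table of another assembly (GRCz12tu), used here for neighbours and not for positions, the annotated span of hoxb3a overlaps those of hoxb4a, hoxb5a and hoxb6a. The spans of hoxc3a, hoxa3a, hoxb1b and hoxd3a likewise overlap other Hox genes of their clusters, 13 overlapping pairs in all. Reads in such stretches can be counted at the wrong gene, and no source used here states whether the counting used strand.

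The hoxba cluster, with 11 genes, held 45.9 ± 1.28% of the Hox TPM in DMSO and 43.2 ± 1.56% in TCDD (mean ± SD, n = 4 each). The hoxaa cluster followed with 15.7 ± 0.241% and 16.9 ± 0.847%. The hoxca and hoxda clusters each held 10.2 to 14.2% in every library. The 4 genes of hoxcb, with hoxc6b as the highest, held 0.0624 to 0.267%.

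**Figure D2:**
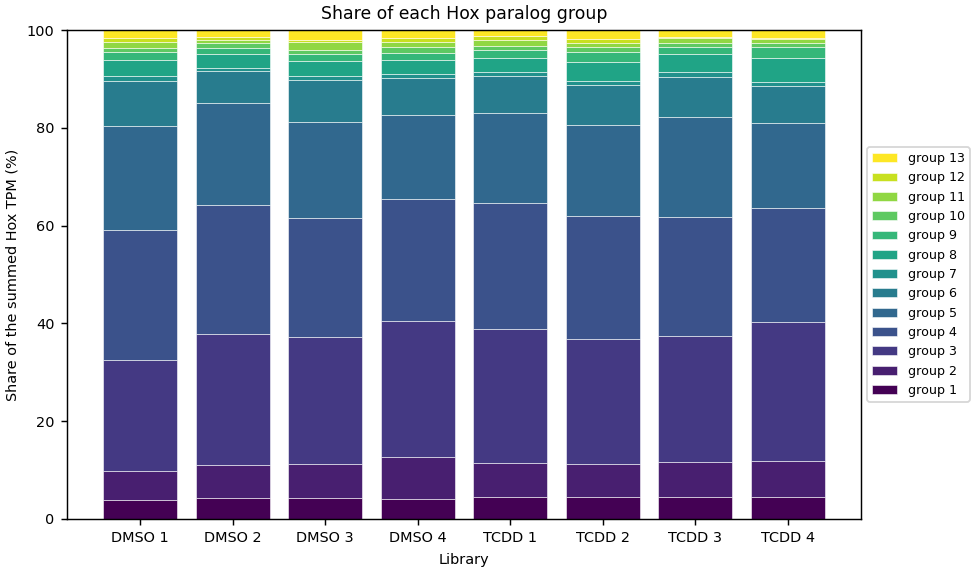
Share of the summed Hox TPM (%) held by each of the 13 paralog groups in each library, stacked from group 1 at the bottom to group 13 at the top. Groups 3 to 5 fill 69.2 to 74.1% of every bar.

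The duplication of the teleost genome left 11 Hox genes with both an a and a b copy in the files, and their levels were unequal. The copy hoxb5a was 1.61 to 2.38 times as high as hoxb5b in TPM, hoxb6a 3.17 to 5.32 times as high as hoxb6b and hoxb8a 2.26 to 7.81 times as high as hoxb8b. In zebrafish hoxb5b limits the number of atrial cells. The copy hoxc6a (3.69 to 7.52 TPM) stood above hoxc6b (0.10 to 0.90 TPM) in 8 of 8 libraries. For hoxa9, hoxa11, hoxa13 and hoxb1 the b copy was higher in 8 of 8 libraries, with hoxb1b 1.08 to 2.80 times as high as hoxb1a. The copies of hoxc11, hoxc12 and hoxc13 were all at or below 0.23 TPM. Reads that fit both copies of a pair may be split between them.

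Of the 49 genes, 12 did not pass the filter on low counts used before the test below, and all 12 belong to groups 9 to 13. With no filter all 49 were tested and 0 were called. They were hoxa9a, hoxb10a, hoxc10a, hoxa11a, hoxc11a, hoxc11b, hoxc12a, hoxc12b, hoxa13a, hoxb13a, hoxc13a and hoxc13b. No library held more than 15 counts of any of them, and 8 never passed 3 counts. The gene hoxa13a, which acts in the fins, had 34 counts over the DMSO libraries and 45 over the TCDD libraries, and hoxa11a had 23 and 35. The gene hoxc13a was listed at 0 in the 4 DMSO libraries and had 2 counts in the TCDD libraries, while hoxb13a, hoxc12a and hoxc12b had 4, 2 and 3 counts in DMSO and 0 in TCDD. Differences among such counts were not detectable at this depth.

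Hox levels were then set side by side for the exposed and the solvent larvae. Expected counts were tested with edgeR's quasi-likelihood test across all 20522 genes that passed a filter on low counts, and a gene counted as called when its p, adjusted by Benjamini-Hochberg over those genes, was under 0.05. Of the 37 Hox genes tested 0 were called, against 5.72% of all genes tested (1174). The smallest adjusted p was 0.125. At an unadjusted p under 0.05 the Hox genes gave 4 (1 above and 3 below 0), against 22% of all genes. With DESeq2 0 Hox genes were called as well, against 10.3% of all genes, and with limma-voom 0, against 5.33%. The 37 log2 fold changes ran from -0.75 (hoxc1a) to 0.80 (hoxc6b), 18 above and 19 below 0, with a median of -0.03 (0.00 over all genes tested). Their median size was 0.17, beside 0.20 over all genes.

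**Figure D3:**
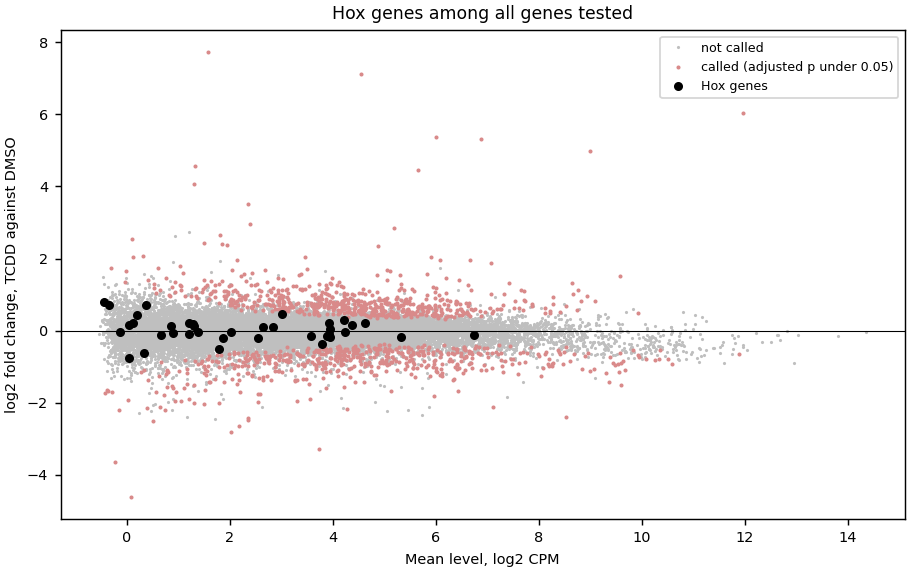
Log2 fold change of TCDD against DMSO by mean level (log2 CPM) for all 20522 genes tested (grey), with called genes in red and the 37 Hox genes in black. The Hox genes lie between -0.75 and 0.80, and 0 of them are among the 1174 called.

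Most Hox genes were scarce, and scarce genes were called less often. Of the 37, 6 had a mean below 1 CPM, where 1.36% of all genes were called. A further 14 had 1 to 5 CPM (3.31% called), 15 had 5 to 25 CPM (6% called) and hoxb3a and hoxb5a had 25 to 200 CPM (7.66% called). The 95% interval of the log2 fold change of Hox genes had a median half-width of 0.82 below 1 CPM, 0.55 at 1 to 5 CPM, 0.33 at 5 to 25 CPM and 0.27 above. The median half-widths of all genes in these ranges were 0.79, 0.54, 0.34 and 0.27. For 30 of the 37 Hox genes the interval lay inside a 2-fold change in either direction, as for 83.5% of all genes tested. For 15 it lay inside a 1.5-fold change, a bound for which the share of all genes was not computed. The 7 whose interval reached past 2-fold were hoxc1a, hoxc6b, hoxb8b, hoxb9a, hoxc9a, hoxa11b and hoxd13a. For these 7 the interval includes a 2-fold difference.

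**Figure D4:**
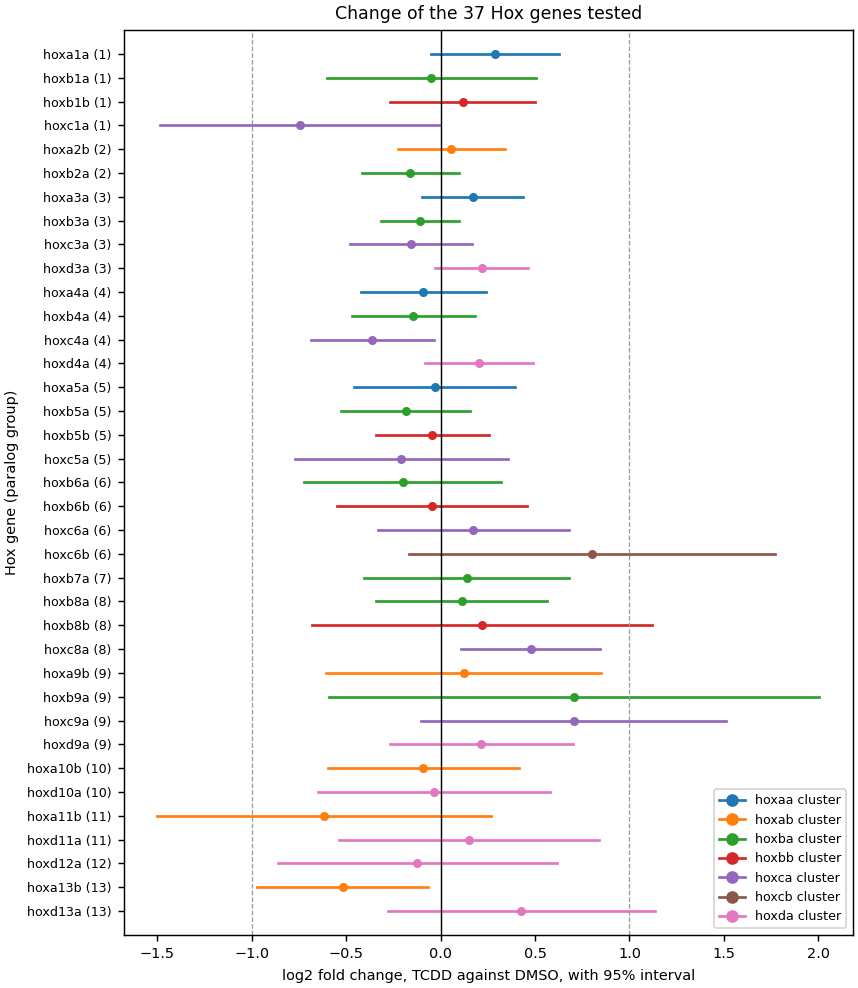
Log2 fold change of TCDD against DMSO with its 95% interval for the 37 Hox genes tested, from group 1 at the top to group 13 at the bottom, coloured by cluster, with dashed lines at a 2-fold change. Intervals of 4 genes (hoxc1a, hoxc4a, hoxc8a and hoxa13b) leave out 0 before adjustment, and 0 genes pass after it.

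In group 1, whose genes act in hindbrain segmentation, hoxa1a was highest by TPM. It held 18.45, 13.4, 19.15 and 15.7 CPM in DMSO libraries 1 to 4 and 22.2, 22.9, 20.9 and 15.5 CPM in TCDD libraries 1 to 4. The values of TCDD 1, 2 and 3 lay above all DMSO values, while TCDD 4 fell within their range. The log2 fold change was 0.29 ± 0.16 (SE; 95% interval -0.05 to 0.63, adjusted p = 0.299). The gene hoxc1a was scarce, with 1.28, 1.28, 1.05 and 0.91 CPM in DMSO and 0.34, 0.76, 0.53 and 1.03 CPM in TCDD. It came closest to the detection floor in TCDD 1, with 5 counts, and the groups overlapped through TCDD 4. Its log2 fold change of -0.75 (interval -1.49 to -0.01, adjusted p = 0.224) rested on 63 counts in DMSO and 40 in TCDD. The other 2 members, hoxb1a (-0.05) and hoxb1b (0.12), had intervals on both sides of 0.

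In group 2, hoxa2b, which gives the second pharyngeal arch its identity, held 14.6, 13.5, 14.95 and 16.4 CPM in DMSO and 14.45, 18.15, 16.2 and 13.1 CPM in TCDD. The groups overlapped (log2 fold change 0.06, interval -0.23 to 0.34, adjusted p = 0.843). Its partner in arch patterning, hoxb2a, had -0.16 (interval -0.42 to 0.10). Summed CPM of 14 markers of the pharyngeal arches and neural crest ran from 403.1 to 462.6 in DMSO and from 476.9 to 535.5 in TCDD. These sums are on library size alone, a scale that raised the median of all genes tested by 0.13. The Hox CPM are on TMM-scaled library sizes, and the sums were not computed on that scale. Of the 14 markers, 2 were called higher (2.99% of all genes tested were). The part of these cells in the Hox values was not tested.

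In group 3, hoxb3a was the most abundant Hox gene. It held 115, 112, 104.5 and 110.2 CPM in DMSO and 107, 103.7, 106.1 and 92.8 CPM in TCDD. The TCDD values lay at the low end of the DMSO range or below it, and the groups overlapped. The log2 fold change of -0.11 had the narrowest interval of the 37 (-0.32 to 0.10, a 0.803 to 1.07-fold level in TCDD), with adjusted p = 0.535. The others in the group were hoxa3a (0.17), hoxc3a (-0.16) and hoxd3a (0.22), with adjusted p of 0.450, 0.575 and 0.282.

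In group 4, hoxb4a held 19.2, 14.02, 14.3 and 14.3 CPM in DMSO and 13.6, 15.6, 15.5 and 11.2 CPM in TCDD. DMSO 1 stood above the other 7 libraries, and the rest overlapped (log2 fold change -0.14, interval -0.47 to 0.18, adjusted p = 0.618). The gene hoxc4a held 18.85, 16.4, 14.7 and 11.45 CPM in DMSO and 12.3, 11.4, 11.7 and 12.4 CPM in TCDD. Its 4 TCDD values were close together at the low end of a wide DMSO range, and DMSO 4 kept the groups overlapping. The log2 fold change was -0.36 ± 0.15 (SE; interval -0.69 to -0.04, adjusted p = 0.183). Without DMSO 4 it was -0.48 with adjusted p = 0.0592. In TPM the group means lay close, with 11.7 ± 2.77 TPM in DMSO and 11.3 ± 0.701 TPM in TCDD (n = 4 each). That scale raised most genes, with a median of 0.26 over all genes tested on log2(TPM + 0.5). By edgeR with offsets for transcript length, where the median of all genes was -0.001, hoxc4a had -0.28 (adjusted p = 0.269). In the same group hoxd4a had 0.20 and hoxa4a -0.09.

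In group 5, whose members help to position the pectoral fin, all 4 log2 fold changes were below 0, from -0.03 (hoxa5a) to -0.21 (hoxc5a). On the TPM scale, where most genes were higher in TCDD, the summed level of the group was instead 53.3 ± 9.40 in DMSO and 60.6 ± 8.09 in TCDD. The gene hoxb5a held 53.9, 43.0, 39.3 and 33.6 CPM in DMSO and 36.0, 40.3, 43.1 and 29.85 CPM in TCDD. The ranges overlapped, with DMSO 1 highest and TCDD 4 lowest (log2 fold change -0.19, interval -0.53 to 0.16, adjusted p = 0.527). Its copy hoxb5b had -0.04 (interval -0.34 to 0.26).

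In group 6, hoxb6a held 8.87, 4.38, 6.99 and 4.33 CPM in DMSO and 5.74, 5.61, 5.87 and 4.05 CPM in TCDD. The DMSO libraries spread over a 2-fold range that covered all TCDD values but the lowest (log2 fold change -0.20, interval -0.72 to 0.32, adjusted p = 0.672). The sign turned without DMSO 1 (0.023). The gene hoxc6b had the largest positive value of the 37, 0.80, on 24 counts in DMSO and 45 in TCDD, and its interval ran from -0.17 to 1.77. Group 7 is a single gene here, hoxb7a, with 3.195, 1.75, 2.03 and 2.03 CPM in DMSO and 1.76, 2.70, 3.0 and 2.38 CPM in TCDD. These values overlapped fully (log2 fold change 0.14, interval -0.40 to 0.68, adjusted p = 0.792).

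In group 8, a trunk group, hoxc8a had the smallest p of all Hox genes. It held 8.31, 5.46, 6.50 and 6.15 CPM in DMSO and 7.70, 10.5, 8.20 and 10.2 CPM in TCDD. The TCDD values lay above DMSO 2, 3 and 4, and DMSO 1 reached above TCDD 1 and TCDD 3. The log2 fold change was 0.48 ± 0.17 (SE; interval 0.11 to 0.84, a 1.08 to 1.79-fold level), with adjusted p = 0.125. This was the Hox gene whose call depended on the scale. With library size alone it was called (0.62, adjusted p = 0.0372), as were 6.38% of all genes. By limma on log2(TPM + 0.5) it was called too (0.70, adjusted p = 0.0259), as were 7.64% of all genes. Those scales raised the median of all genes tested by 0.13 and 0.26. In TPM its groups did not overlap, with 2.92 to 3.21 in DMSO and 4.33 to 6.31 in TCDD. Over all 23 alternatives the adjusted p of hoxc8a ran from 0.0259 to 0.274. The gene hoxb8a held 8.95, 7.01, 6.22 and 5.03 CPM in DMSO and 5.20, 7.90, 9.07 and 7.14 CPM in TCDD, in ranges that almost coincided (0.11, interval -0.34 to 0.56, adjusted p = 0.80).

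Counted over the 37 Hox genes, 0 had groups that did not overlap in CPM on TMM-scaled library sizes, against 14% of all genes tested. On library size alone it was 2, hoxa3a and hoxc8a, against 16.4% of all genes. In TPM it was 4, hoxa1a, hoxa2b, hoxa3a and hoxc8a, against 19.2% of all genes. All of these were higher in TCDD, as were 12.4% of all genes on library size alone and 17.4% in TPM, the direction in which those scales move most genes.

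The posterior groups were thin. In group 9, hoxd9a held 2.16, 1.95, 2.17 and 1.82 CPM in DMSO and 2.63, 3.05, 1.87 and 1.87 CPM in TCDD. TCDD 1 and 2 lay above the DMSO range and TCDD 3 and 4 within it (log2 fold change 0.22, interval -0.27 to 0.70, adjusted p = 0.614). The other tested members of the group, hoxa9b (0.12), hoxb9a (0.71) and hoxc9a (0.70), also had values above 0, on 27 to 89 counts in DMSO. Of the 13 paralog groups, only group 9 had a summed TPM without overlap, with 3.66 to 4.06 in DMSO and 4.94 to 7.09 in TCDD. On that scale, which raised most genes, 17.4% of all single genes tested did not overlap with TCDD higher. In group 10, hoxa10b held 2.24, 1.82, 2.24 and 2.65 CPM in DMSO and 2.03, 2.77, 2.13 and 1.48 CPM in TCDD, with 125 counts in each group (log2 fold change -0.09, interval -0.60 to 0.42, adjusted p = 0.860).

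Groups 11 to 13 act in the distal fins and the tail. The gene hoxa11b held 1.76, 0.674, 2.03 and 1.05 CPM in DMSO and 1.215, 0.693, 1.2 and 0.45 CPM in TCDD, with a wide interval (log2 fold change -0.62, interval -1.50 to 0.27, adjusted p = 0.400). DMSO 1 and 3 lay above all TCDD libraries and TCDD 4 below all DMSO libraries, and the rest overlapped. The gene hoxd12a held 1.76, 1.55, 1.40 and 1.33 CPM in DMSO, whereas the TCDD libraries split into 1.96 and 2.01 CPM (TCDD 1 and 2) and 0.80 and 0.77 CPM (TCDD 3 and 4). Its log2 fold change was -0.12 (interval -0.86 to 0.61, adjusted p = 0.869). The gene hoxa13b held 4.87, 3.17, 4.12 and 3.56 CPM in DMSO and 2.30, 3.60, 2.60 and 2.445 CPM in TCDD. TCDD 1, 3 and 4 lay below all DMSO libraries and TCDD 2 lay among them. The log2 fold change was -0.52 ± 0.21 (SE; interval -0.97 to -0.06, adjusted p = 0.171). Its neighbour in function, hoxd13a, had a value of opposite sign (0.43, interval -0.28 to 1.13). On library size alone, summed CPM of 12 fin markers was 1166 to 1335 in DMSO and 754.5 to 1431 in TCDD. Of these libraries TCDD 4 was the lowest, and 2 of the 12 markers were called higher (2.99% of all genes). The part of fin tissue in these values was not tested.

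**Figure D5:**
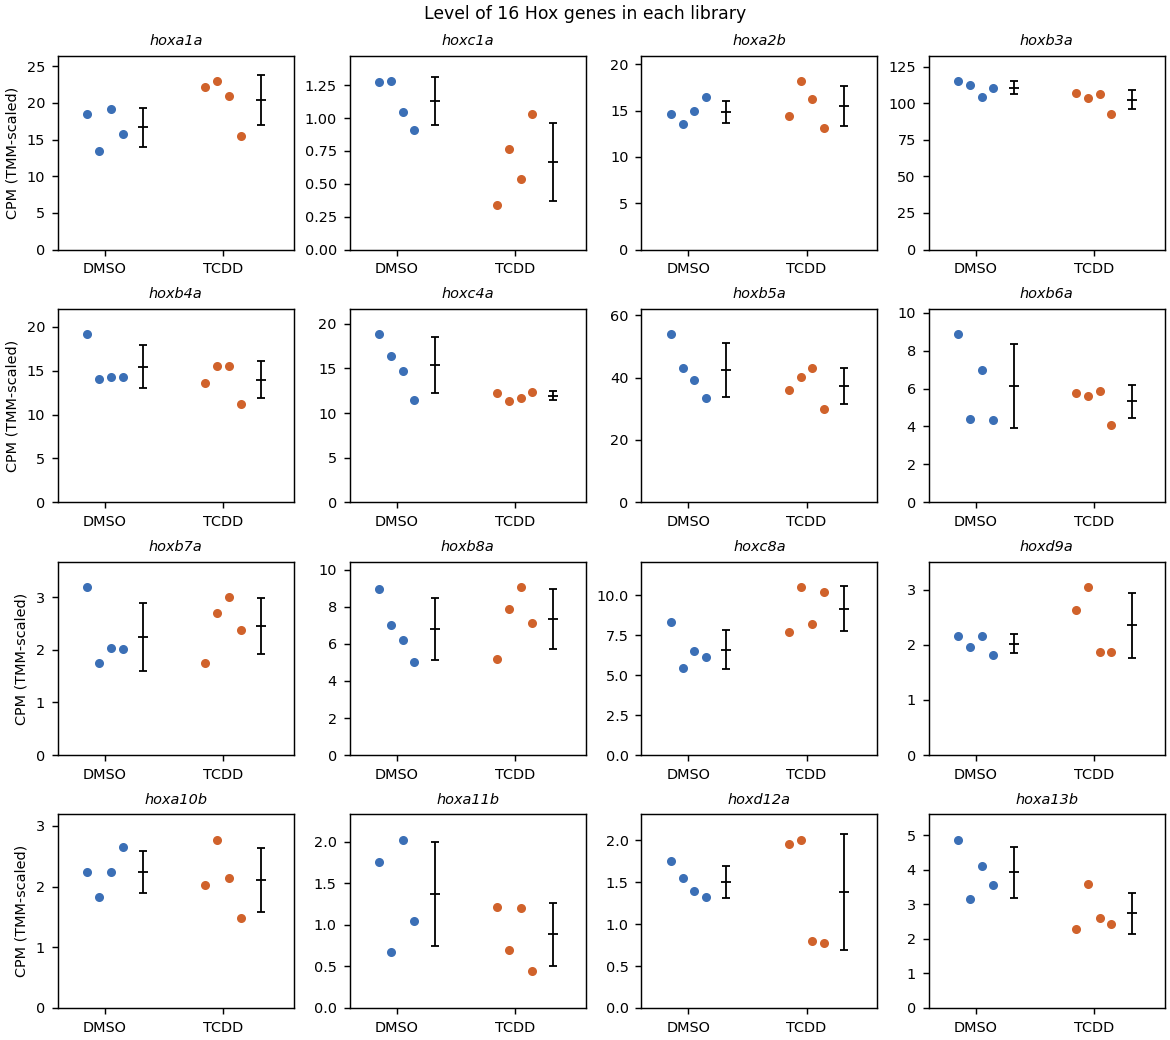
CPM on TMM-scaled library sizes of 16 Hox genes (the highest of each paralog group by TPM and those with the 4 smallest p), 1 point per library from replicate 1 on the left to 4 on the right, with the mean and SD of each group of 4 as a black bar. In every panel the DMSO and TCDD points overlap, and all axes start at 0.

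Set out along the axis, values above and below 0 were not spread evenly, with limits chosen after the values were seen and with no test. In groups 1 to 5, 12 of 18 log2 fold changes were below 0 (median -0.07), but 11 of 18 were above 0 with library size alone, where the median of all genes was 0.13, and 11 of 18 with offsets for transcript length. In groups 6 to 9, 10 of 12 were above 0 (median 0.195), as were 11 of 12 with library size alone and 12 of 12 with length offsets. In groups 10 to 13, 5 of 7 were below 0 (median -0.09), against 2 of 7 on both of those scales. These counts turned without TCDD 4, with 10 of 18 above 0 in groups 1 to 5 (median 0.02) and 5 of 7 above 0 in groups 10 to 13 (median 0.05). In groups 6 to 9 at least 9 of 12 stayed above 0 with any single library left out, while the median ran from 0.079 without TCDD 2 to 0.306 without DMSO 1. Without DMSO 2 it was 0.096. The limits came from these same values, so these counts cannot test the pattern. With the blocks used above for the TPM shares, 3 of 6 tested values were above 0 in groups 1 and 2. In groups 3 to 5 it was 3 of 12, in groups 6 to 8 it was 6 of 8. In groups 9 to 13 it was 6 of 11 (median 0.121). Within the hoxca cluster, hoxc1a, hoxc3a, hoxc4a and hoxc5a had values below 0, and hoxc6a, hoxc8a and hoxc9a had values above 0. The hoxba cluster turned at another place, with hoxb1a to hoxb6a below 0 and hoxb7a, hoxb8a and hoxb9a above. The hoxaa cluster ran the other way, with hoxa1a (0.29) and hoxa3a (0.17) above 0 and hoxa4a (-0.09) and hoxa5a (-0.03) below. In the hoxda cluster 5 of 7 were above 0. Of the 7 clusters, only hoxda had a summed TPM without overlap, with 31.5 ± 6.34 in DMSO and 43.9 ± 2.27 in TCDD (n = 4 each). On that scale, which raised most genes, 17.4% of all single genes tested did not overlap with TCDD higher.

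The libraries of a group differed in how often they held the highest or lowest Hox level. These counts differed between scales, more so in DMSO than in TCDD. Within DMSO, library 1 held the highest CPM of 21 of the 37 tested Hox genes (56.8%, against 36.7% of all genes tested), and library 2 the lowest of 17 (45.9%, against 25.2%). With library size alone this order turned: DMSO 1 was highest for 9, and DMSO 2 was highest for 12 and lowest for 10. Within TCDD, library 2 was highest for 17 (45.9%, against 25.8% of all genes) and library 4 lowest for 18 (48.6%, against 32.1%). With library size alone these counts were 15 and 15, both 40.5%, against 20.6% and 23.8% of all genes. DMSO 1 had the lowest TMM factor (0.825, against 0.972 to 1.095 in the other 7), which raises its scaled CPM. Marker sums are on library size alone, not on the TMM scale. By these, DMSO 1 had the lowest summed CPM of neuron markers, 618.7 against 1026 to 1529 in the other DMSO libraries. It also had the lowest of cartilage markers among the DMSO libraries (9615). Its summed CPM were the highest of the DMSO libraries for liver (59378 against 36802 to 46237), blood (6303 against 4230 to 4858) and cardiomyocyte markers (1711 against 1372 to 1463). The part of the scaling and of these tissues in the Hox levels was not tested.

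Genes listed as working with or upstream of Hox genes, and other homeobox genes, were examined in 5 lists. Of 76 tested genes 1 was called higher (2.99% of all genes were) and 0 lower (2.73%), and their log2 fold changes had a median of -0.01. The call was the Polycomb chromobox gene cbx7a, whose protein reads repressive histone methylation. It held 35.4, 65.3, 52.6 and 49.65 CPM in DMSO and 82.6, 77.6, 67.7 and 100 CPM in TCDD, with no overlap, as for 14% of all genes tested (log2 fold change 0.69 ± 0.175, adjusted p = 0.0411). Leaving out 1 library, a fit with fewer samples, ended this call in 6 of 8 cases, with adjusted p of 0.106 (DMSO 3 out), 0.0836 (DMSO 4 out), 0.0936 (TCDD 1 out), 0.0859 (TCDD 2 out), 0.0519 (TCDD 3 out) and 0.0981 (TCDD 4 out). It was also not called with library size alone (0.0622), without both DMSO 1 and TCDD 2 (0.0735) or on log2(TPM + 0.1) (0.0514). The log2 fold changes themselves were 0.58 to 0.77 in those 6 cases and 0.80, 0.58 and 1.03 in these last 3 fits. It was the single call among 29 Polycomb and trithorax genes (median 0.09).

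Of the 14 cofactor genes (pbx, meis and pknox), whose proteins bind DNA together with Hox proteins, 0 were called (median -0.10, 1 at an unadjusted p under 0.05). Among 16 tested genes of the caudal, retinoid, Gdf and Fgf signals that set Hox domains 0 were called (median -0.09), with 6 at an unadjusted p under 0.05 (22% of all genes tested were) and a smallest adjusted p of 0.0686. That was cdx1a, a caudal gene named after its values were seen, with 8.01 ± 1.29 CPM in DMSO and 12.1 ± 2.36 CPM in TCDD (n = 4 each). It was not called by edgeR with TMM factors on all 8 libraries. It was called by DESeq2 (adjusted p = 0.0304), by edgeR with library size alone (0.039) or without TCDD 1 (0.0413), and by limma on log2(TPM + 0.5) (0.0255) and log2(TPM + 0.1) (0.0275). Among 11 genes listed as hindbrain regulators 0 were called (median -0.04, 1 at an unadjusted p under 0.05, zfpm1). The 6 tested homeobox genes of the gsx, pdx, evx and mnx families also gave 0 calls (median -0.03, 1 at an unadjusted p under 0.05). DESeq2 called 2 of the related genes in all, cbx7a and cdx1a.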

How the data were processed

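The authors deposited, for each of the 8 libraries, an expected (estimated) count, a TPM and an FPKM per gene, per the file headers. The expected counts carry no normalization (11.43 to 11.98% of genes have a fraction), and the TPM and FPKM were scaled by the authors for length and library size. The submitters' processing notes name Bowtie2 and GRCz11, and the extraction used Trizol and a SMARTER mRNA-Seq kit per the labels. Quantifier and annotation: not given in the sources used here. Expected counts were rounded. Genes were filtered by group with filterByExpr of edgeR 4.0.16 (R 4.3.3), scaled by TMM and tested for treatment with its robust quasi-likelihood F-test (two-sided, Benjamini-Hochberg over all genes). The SE is the log2 fold change over the square root of F, intervals are 95% from the t distribution of the fit, and the biological coefficient of variation was 18.3%. For single genes, CPM were taken on TMM-scaled library sizes, and for marker lists on library size alone. No molecular identifiers are named, so reads may not be independent molecules, and the floors cover counting error only. Alternatives used DESeq2 1.42.0 and limma 3.58.1, other scalings, filters and thresholds, and libraries left out. The fit was tested on simulated data. No pair of libraries in a group was a copy (lowest chi-square per degree of freedom 9.00).

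Named genes were the highest of each paralog group by mean TPM, the 4 smallest p among uncalled Hox genes, any called Hox gene (0) and called genes of the related lists, up to 4 each. The 15 lists matched 205 of 209 memberships by symbol and 1 by synonym. Members and lists were chosen with earlier results of these data known. Python 3.11.15, pandas 2.3.3 and matplotlib 3.10.9 were used for tables and figures. No sequences of these genes were used here.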

Additional observations from a re-analysis of the deposited data

Results flagged for a closer look

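Within groups of 4 libraries, a single library far from the other 3 was looked for in 82 sets of values, of which chance flags about 1 in 20, and 4 were found. The CPM of hoxb4a in DMSO was 19.17 in DMSO 1 and 14.02 to 14.33 in the other 3. The CPM of hoxb6a in TCDD was 4.053 in TCDD 4 and 5.612 to 5.869 in the others. The summed TPM of paralog group 13 in DMSO was 5.23 in DMSO 3 and 3.99 to 4.19 in the others. The summed CPM of fin markers in DMSO was 1335 in DMSO 1 and 1166 to 1180 in the others.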

How the results depend on the processing

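No Hox gene was called higher or lower with limma-voom, DESeq2, RLE or upper quartile factors, no filter, a filter of 1 CPM in 4 samples, no robust estimation, the replicate block, length offsets, adjusted p thresholds of 0.1 and 0.01, any single library left out (0 to 0 in both directions) or both DMSO 1 and TCDD 2 left out. One call, 1 Hox gene higher (hoxc8a), appeared with library size alone, log2(TPM + 0.5) and log2(TPM + 0.1). Under length offsets the median of the Hox genes was 0.13 (-0.001 for all genes), and 10 of 37 values changed sign, as did 9 with library size alone and 14 with log2(TPM + 0.5). For these shifts the cause was not tested.

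Among the Hox genes described singly, several values turned sign, the largest of them -0.20 in the main fit (hoxb6a). They were hoxb3a (0.019), hoxa10b (0.038) and hoxd12a (0.0037) with library size alone, hoxb4a (0.12), hoxb6a (0.11), hoxa10b (0.00014) and hoxd12a (0.011) with length offsets, and hoxa2b (-0.041) without both DMSO 1 and TCDD 2. With log2(TPM + 0.5) they were hoxb3a (0.21), hoxb4a (0.17), hoxb5a (0.13), hoxb6a (0.15) and hoxa10b (0.18), and with log2(TPM + 0.1) hoxb3a (0.21), hoxb4a (0.17), hoxb5a (0.13), hoxb6a (0.16) and hoxa10b (0.21). With 1 library left out the values ran from -0.035 to 0.13 for hoxa2b, -0.34 to 0.023 for hoxb6a, -0.0093 to 0.27 for hoxb8a, -0.26 to 0.047 for hoxa10b and -0.36 to 0.077 for hoxd12a.

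Related genes called higher numbered 2 with DESeq2, 3 and 2 with log2(TPM + 0.5) and log2(TPM + 0.1), 2 and 0 at adjusted p thresholds of 0.1 and 0.01, 0 without both DMSO 1 and TCDD 2, and 0 to 1 with 1 library left out (0 without DMSO 3, TCDD 2, TCDD 3 or TCDD 4). The genes behind these counts changed. The gene called higher was cbx7a without DMSO 1 or DMSO 2, rxrba without DMSO 4 and cdx1a without TCDD 1. With log2(TPM + 0.5) they were cdx1a, rarga and cbx7a, and with log2(TPM + 0.1) cdx1a and rarga. Related genes called lower numbered 1 at 0.1 (gsx2) and 0 to 1 with 1 library left out (1 without DMSO 4, zfpm1). The calls over all genes numbered 1987 with DESeq2, 616 without both DMSO 1 and TCDD 2, 2070 and 327 at thresholds of 0.1 and 0.01, and 523 (without DMSO 3) to 1854 (without DMSO 2) with 1 library left out, fits with fewer samples. With the replicate block 1347 genes and 0 Hox genes were called. The replicate numbers have no stated meaning, and whether they pair the samples is not known. Same-numbered libraries had correlations of deviations of -0.274, -0.224, 0.0963 and 0.292, too few values to decide it. The lowest and highest correlations were between libraries of different number, -0.436 for DMSO 4 with TCDD 2 and 0.525 for DMSO 1 with TCDD 2. The 10 highest Hox genes by TPM were the same 10 by FPKM. Both measures are scaled for transcript length, so this agreement cannot test how the order depends on the lengths. Depth limits what can be seen of the scarce Hox genes: intervals were widest below 1 CPM, as they were for all genes tested.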
